A study of Homo sapiens with 4 samples.

Results

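The tubulin and kinesin genes were examined in HT1080 cells with a KDAC8 knockout. Members were chosen by name alone: rows of the deposited count table whose symbol follows the pattern of alpha, beta, gamma, delta and epsilon tubulin genes, or of the KIF and KIFC kinesin genes, with pseudogene names left out. This gave 64 of 60675 gene rows, of which 22 were tubulins and 42 were kinesins. All 64 were found by gene ID in GENCODE release 29. By role they were 9 alpha tubulins, 9 beta tubulins, 4 gamma, delta and epsilon tubulins, 15 mitotic kinesins, 13 transport kinesins and 14 other kinesins.

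HT1080 is an established cell line from a human fibrosarcoma, a tumour of connective tissue. The HDAC8 gene encodes KDAC8, a lysine deacetylase. The series holds 1 group, KDAC8 knockout cells grown in MEM with fetal bovine serum, sequenced as 4 libraries of total RNA after ribosomal RNA depletion. All 4 libraries carry the knockout, no parental or untreated library was analysed here, and the labels do not say whether the cells were 1 clone or a pool or whether replicates were separate cultures. No comparison between conditions can therefore be made, and every p-value reflects the spread among these 4 samples alone, part or all of which may be technical. HDAC8 itself had 80, 89, 95 and 107 counts in replicates 1 to 4, or 1.98, 2.11, 2.10 and 2.53 CPM, the count scaled to a common library size. These whole-gene counts do not check the knockout, because a transcript with a small deletion is counted too.

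Total counts ranged from 39454210 to 45828807 per library. The fibrosarcoma label was compared with mesenchymal markers, of which 4 of 6 reached 1 CPM in every library: VIM (4701 CPM), CD44 (1560.1), FN1 (633) and PDGFRB (3.98), while S100A4 and THY1 did not. Of the 4 epithelial markers 0 were detected, with EPCAM, CDH1 and KRT5 at 0 counts, and of the 4 platelet or haematopoietic markers also 0, with PF4 at 0 counts. Of 8 neural markers only SNAP25 was detected (5.45 CPM), with STMN2 and INA at 0, and the list summed to 5.39 to 6.56 CPM per library. Of 6 ciliated-cell or sperm markers only DNAH5 was detected (3.72 CPM), with FOXJ1, TPPP2 and ODF1 at 0, and the list summed to 3.54 to 3.88 CPM. These lists bear on several tubulins below that are known from neurons, platelets or testis.

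Microtubules are hollow polymers of alpha and beta tubulin dimers. Humans carry several genes, called isotypes, for each, and tissues differ in which isotypes they use. Gamma tubulin seeds new microtubules at the centrosome, and delta and epsilon tubulin act at centrioles. Kinesins are motor proteins that use ATP to walk along microtubules or to take them apart. Some carry vesicles and organelles, others build the mitotic spindle and divide the cell, and a smaller number serve cilia and signalling.

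Of the 64 members, 48 were detected, meaning 1 CPM or more in all 4 libraries: 15 of 22 tubulins and 33 of 42 kinesins. CPM was scaled by effective library size. Levels of different genes were compared only as CPM per kilobase of exon, with the exonic length joining all annotated exons of a gene. Together the members took 0.728% to 0.757% of all counts per library, and tubulins supplied 72.4% to 74.2% of that. The median detected tubulin stood at 25.2 CPM per kilobase and the median detected kinesin at 6.39, beside 5.56 for all 12984 detected genes, and 30 of the 48 detected members lay above that last value. Of the members, 3 kinesins (KIF2B, KIF19 and KIF25) were at 0 counts in every library, so a level of up to 0.0176 CPM remains possible (3 counts over the 4 libraries). Such limits and all intervals here cover counting error only. By their lowest library, the detected members nearest the threshold were KIF7 (1.16 CPM), TUBD1 (2.11) and KIF26A (2.94). The nearest of those not detected were TUBA3D (0.908), TUBB1 (0.553) and KIF17 (0.265).

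**Figure D1:**
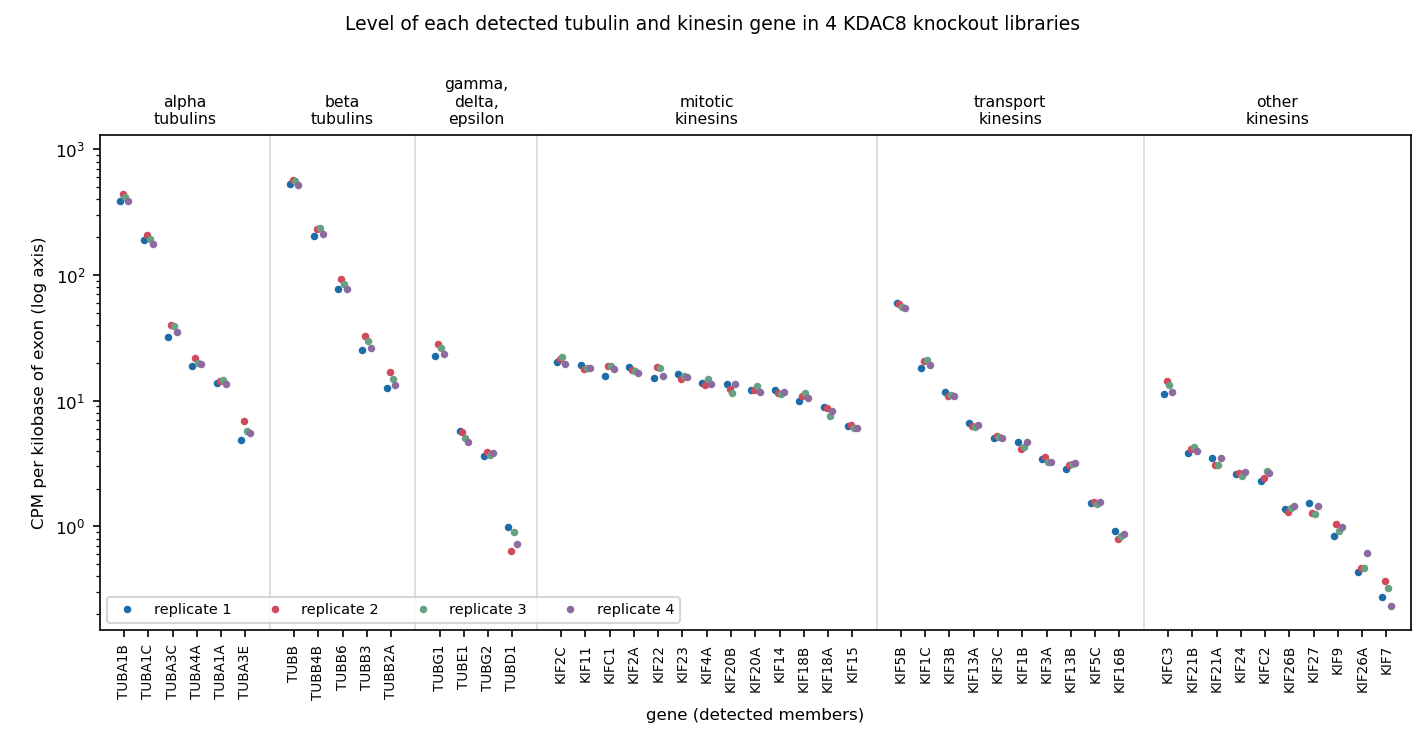
Level of each of the 48 detected members in CPM per kilobase of exon (log axis), with 1 point per replicate library, ordered by level within 6 role groups. Alpha and beta tubulins span from TUBB and TUBA1B at the top down to TUBA3E, while the 13 detected mitotic kinesins lie in a narrower band, and the 4 points of most genes nearly coincide.

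Libraries were compared gene by gene. A mean of at least 10 counts was reached by 53 members, and 36 of them varied between the 4 libraries beyond counting noise (chi-square test of homogeneity with 3 degrees of freedom, Benjamini-Hochberg adjusted over all genes tested at 0.05), against 59.2% of all 16790 genes tested. At a mean of at least 10 CPM, 32 of 41 members varied, against 77.7% of all genes at that level. At that level members varied about as often as other genes, and the counts of varying members given below for role groups and lists are to be read against these 2 shares. The differences were small: only 2 of the 36, TUBB1 and TUBD1, both at low counts, ranged 1.5 times or more between their lowest and highest library. Among all genes, 2021 of the 9944 that varied did so. These 2 counts were not matched for expression level. When expected counts were also adjusted per library for exonic length and GC content, 25 of the 53 varied, beside 48.5% of all genes tested. Adjusted counts given below are to be read against that last share, which covers genes tested at any level. With the adjustment no share was computed at 10 CPM or more. All 25 were among the 36, and the calls of 11 were lost: TUBA3C, TUBA3E, KIF1B, KIF2A, KIF3B, KIF13B, KIF14, KIF18B, KIF21A, KIF21B and KIF23. The highest or the lowest library was a different one after this adjustment for 23 of the 36, so the library orders given below are those before it. The median SD of log2 CPM over libraries was 0.12 for detected tubulins, 0.08 for detected kinesins and 0.11 for all detected genes.

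Alpha tubulin transcripts came mainly from the TUBA1B and TUBA1C genes, which are ubiquitously used isotypes. TUBA1B (ENSG00000123416, chromosome 12, 49127782 to 49131397, GRCh38, reverse strand) had 1398, 1579, 1500.4 and 1379 CPM in replicates 1 to 4, a mean of 1464 ± 93.4 CPM (SD, n = 4). TUBA1C (ENSG00000167553, chromosome 12, 49188736 to 49274603, forward strand) had 874, 961, 889 and 823 CPM. Both were highest in replicate 2 and lowest in replicate 4, and both varied (adjusted p = 3.09e-160 and 3.43e-98 in the chi-square test), although their libraries ranged only 1.15 and 1.17 times. Per kilobase TUBA1B stood at 409.6 ± 26.1 CPM, above 99.5% of all detected genes, and TUBA1C at 192 ± 12.3. TUBA1A, the neighbouring gene that is prominent in developing neurons, had 47.6, 48.8, 49.7 and 46.8 CPM, close together in all 4 libraries, with no variation detectable beyond counting noise (adjusted p = 0.274).

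The coding parts of these 3 genes are nearly the same, and an expected count divides reads among genes that share sequence. Of all 100-base windows of the longest transcript, 18.4% in TUBA1B, 18.3% in TUBA1A and 11.5% in TUBA1C also occurred in transcripts of another gene. Here and below only exact matches were counted, so stretches with a few differing bases are not included. The pseudogene TUBAP2 was among the genes with such matches, for 3.2% of the windows of TUBA1B, 0.83% of TUBA1C and 0.55% of TUBA1A. How reads were divided among these genes was not tested.

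TUBA3C, known mainly from testis, followed TUBA1B and TUBA1C among alpha tubulins per kilobase of exon, but lay below TUBA4A with plain CPM and with the principal transcript as length. TUBA3C (ENSG00000198033, chromosome 13, 19173770 to 19181852, reverse strand) had 49.7, 61.8, 61.2 and 54.1 CPM, a mean of 56.7 ± 5.79 (SD, n = 4), and 36.6 ± 3.73 CPM per kilobase, above 92.7% of detected genes. Replicates 2 and 3 were the higher pair and replicate 1 the lowest (adjusted p = 5.19e-15, and 0.297 with the length and GC adjustment). Only 2.14% of its 100-base windows had an exact match in another gene. Nearly identical stretches are not included in that share, and how reads were divided between TUBA3C and similar genes was not tested. Its close relatives on chromosome 2 were far lower: TUBA3E had 7.49, 10.7, 8.86 and 8.49 CPM, and TUBA3D had 0.918, 0.908, 0.920 and 1.26 CPM, around the detection threshold. TUBA3E was the alpha tubulin with the largest spread among those that varied (SD of log2 CPM 0.21, adjusted p = 5.4e-05, and 0.104 with the length and GC adjustment), highest in replicate 2 and lowest in replicate 1. TUBA3D and TUBA3E share 19.8% of TUBA3E's windows, so the division of reads between those 2 is less certain. Of the 6 ciliated-cell or sperm markers, TPPP2, ODF1 and FOXJ1 were at 0 counts in the same libraries, SPAG6 had 1 count and DNAI1 5 over the 4 libraries, and DNAH5 was detected at 3.72 CPM.

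TUBA3C and TUBA3D differed in level but have similar promoters, so the 180 bases before each RefSeq gene start (GRCh38.p14) are shown, 5′ to 3′ in the direction of the gene, with CCAAT in capitals. TUBA3C is chr13:19181825-19182004 on the reverse strand and TUBA3D is chr2:131475939-131476118 on the forward strand.
TUBA3C: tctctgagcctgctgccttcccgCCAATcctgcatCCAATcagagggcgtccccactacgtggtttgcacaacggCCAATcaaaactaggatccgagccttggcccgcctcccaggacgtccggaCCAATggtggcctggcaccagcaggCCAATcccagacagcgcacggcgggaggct
TUBA3D: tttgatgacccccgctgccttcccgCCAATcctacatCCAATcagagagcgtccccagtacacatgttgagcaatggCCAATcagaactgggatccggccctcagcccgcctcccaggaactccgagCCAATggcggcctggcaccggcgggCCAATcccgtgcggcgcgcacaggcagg
Each holds 5 CCAAT matches, and the pair is 77.5% identical over these windows. The TUBA3E window is 80.0% identical to that of TUBA3C and 91.2% to that of TUBA3D. The mean levels in these cells were 36.6 CPM per kilobase for TUBA3C, 5.76 for TUBA3E and 0.627 for TUBA3D. A letter match is a description and not a bound site.

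TUBA4A, a further isotype, had 77.1, 88.8, 81.6 and 79.4 CPM, or 20.04 ± 1.24 CPM per kilobase, and varied (adjusted p = 8.16e-08). It overlaps TUBA4B on the other strand, which had 0 to 3 counts per library, and the strand use of the counting is not given in the sources used here. TUBA8 was also low, at 0.170 to 0.307 CPM, and 65.2% of its windows are shared with the overlapping gene PEX26, so even that level is uncertain. In all, 6 of 9 alpha tubulins were detected, and 5 of 8 tested varied, beside 59.2% of all genes tested. After the length and GC adjustment 3 did, beside 48.5% of all genes tested.

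Within the summed alpha tubulin level per kilobase, TUBA1B took 60.2%, 60.3%, 60.7% and 60.5% in replicates 1 to 4, and TUBA1C 29.02%, 28.3%, 27.7% and 27.9%. TUBA3C contributed 5.38% ± 0.323 (SD, n = 4), TUBA4A 2.96% ± 0.0739, TUBA1A 2.08% ± 0.0929 and TUBA3E 0.846% ± 0.0819. The TUBA1B share thus had an SD of 0.213 percentage points over the libraries. Shares depend on the length used: with the transcript marked APPRIS principal, a choice made after seeing the data, the TUBA1B share was 69.1%, that of TUBA3C 2.81% and that of TUBA4A 2.91%. With plain CPM the TUBA3C share was 2.22% and that of TUBA4A 3.21%.

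Among beta tubulins, TUBB and TUBB4B led, both widely used isotypes. TUBB (ENSG00000196230, chromosome 6, 30720201 to 30725426, forward strand) had 1791, 1909.9, 1877 and 1746 CPM, a mean of 1831 ± 75.8 (SD, n = 4). Its level of 545 ± 22.6 CPM per kilobase was the highest of all 64 members and above 99.7% of detected genes. TUBB4B (ENSG00000188229, chromosome 9) had 429, 495, 499 and 449 CPM, or 222 ± 16.4 per kilobase. TUBB6 (ENSG00000176014, chromosome 18), an isotype known to disturb microtubule arrays when abundant, had 318, 380.1, 349 and 318 CPM, or 82.9 ± 7.19 per kilobase. In all 3 genes replicates 2 and 3 stood above replicates 1 and 4, without overlap, before the length and GC adjustment. After it replicate 1 was the highest library for TUBB and TUBB4B. Few of their windows had an exact match in another gene, at 4.67%, 2.27% and 0%.

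TUBB3, commonly used as a marker of neurons, was expressed at a moderate level. It had 112, 146, 132 and 117 CPM, a mean of 127 ± 15.7 (SD, n = 4) and 28.6 ± 3.55 per kilobase, with replicate 2 highest and replicate 1 lowest (adjusted p = 5.03e-51). Its annotation overlaps a readthrough transcript, with which 79.1% of its windows are shared, and that row held 0, 3.19, 0 and 0 expected counts. Of the 8 neural markers, STMN2 and INA were at 0 in the same libraries, SNAP25 was detected at 5.45 CPM, and ELAVL4 had 42, SYP 31, GAP43 13, RBFOX3 10 and DCX 2 counts over the 4 libraries. TUBB2A had 22.0, 29.4, 25.7 and 23.0 CPM, while TUBB2B, its neighbour on chromosome 6 and another neuronal isotype, had only 11 counts over the 4 libraries. These 2 share 54.4% of TUBB2A's windows, so the low count of TUBB2B depends on the remaining sequence.

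The other beta tubulins were at or below the detection threshold. TUBB1, the platelet isotype, had 0.857, 0.553, 0.784 and 1.16 CPM, 2.10 times higher in replicate 4 than in replicate 2. It passed the test of variation (adjusted p = 0.0392), with 143 counts in all. TUBB4A, a brain isotype, had 8 counts over the 4 libraries, and TUBB8, known from oocytes, had 1. In all, 5 of 9 beta tubulins were detected, and 6 of 6 tested varied, beside 59.2% of all genes tested. The 5 at 10 CPM or more are read beside 77.7%. After the length and GC adjustment all 6 still varied, beside 48.5% of all genes tested at any level, a share not matched for expression level.

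Within the summed beta tubulin level per kilobase, TUBB took 62.6%, 60.1%, 60.4% and 61.2% in replicates 1 to 4, a mean of 61.1% ± 1.10 (SD, n = 4). TUBB4B followed at 24.8% ± 0.718, TUBB6 at 9.27% ± 0.33, TUBB3 at 3.19% ± 0.227 and TUBB2A at 1.62% ± 0.129. TUBB had its largest share in replicate 1, and TUBB6 and TUBB3 theirs in replicate 2. With the longest annotated transcript as length, the TUBB6 share was 14.3% and that of TUBB3 5.81%, more than 1.5 times the values above.

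**Figure D2:**
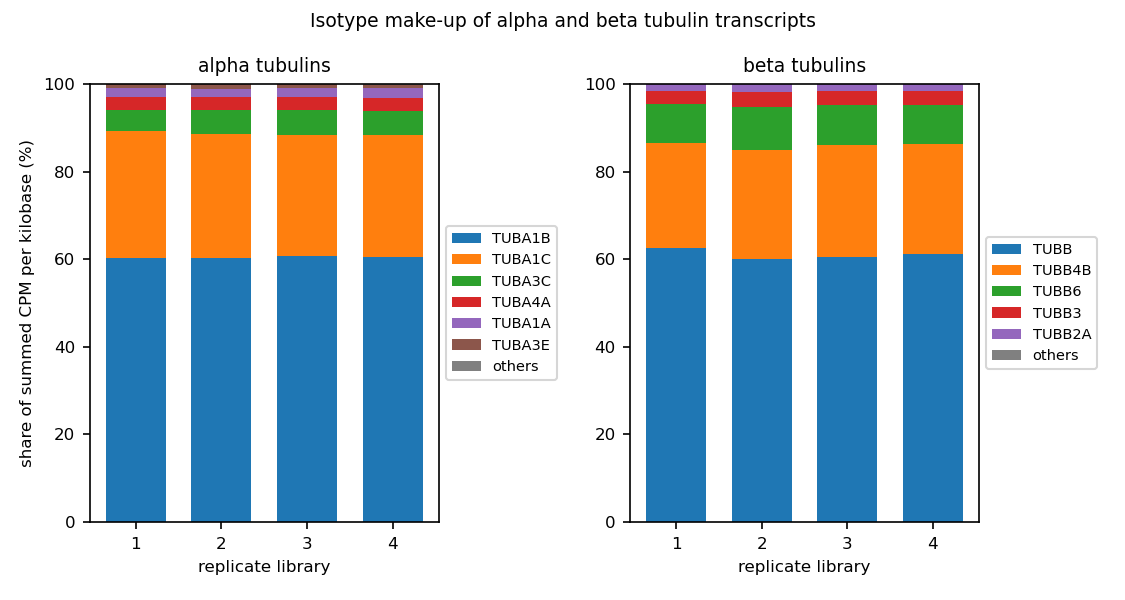
Share of each isotype in the summed CPM per kilobase of exon, in percent, for alpha tubulins (left) and beta tubulins (right), with 1 stacked bar per replicate library. TUBA1B and TUBA1C fill most of every alpha bar, TUBB and TUBB4B most of every beta bar, and the 4 bars of a panel are nearly alike.

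Alpha and beta tubulin form dimers in equal number. Their summed transcript levels per kilobase were 650.4, 733, 692 and 638 CPM for alpha and 852, 946, 925 and 849.6 for beta tubulin. The log2 ratio of alpha to beta was -0.39, -0.37, -0.42 and -0.41, a mean of -0.40 ± 0.02 (SD, n = 4). Its sign depends on the length: the mean was -0.36 with the longest transcript, -0.13 with plain CPM and 0.09 with the principal transcript, so which family has more transcripts is not settled by these data.

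All 4 gamma, delta and epsilon tubulins were detected, and 3 of them varied, beside 59.2% of all genes tested. The same 3 varied after the length and GC adjustment, beside 48.5%. TUBG1 (ENSG00000131462, chromosome 17, 42609676 to 42615234), the main gamma tubulin, had 54.7, 68.4, 63.4 and 56.4 CPM, or 25.2 ± 2.64 per kilobase, above 88.5% of detected genes. Its neighbour TUBG2 (42659305 to 42667006) had 10.0, 10.9, 10.3 and 10.7 CPM, or 3.78 ± 0.144 per kilobase, with no variation detectable (adjusted p = 0.651). The 2 genes share 14.9% of TUBG1's windows. TUBE1, epsilon tubulin, had 39.8, 39.5, 35.4 and 32.5 CPM, or 5.28 ± 0.504 per kilobase, with replicates 1 and 2 above replicates 3 and 4. TUBD1, delta tubulin, was the lowest at 3.31, 2.11, 3.03 and 2.43 CPM, lowest in replicate 2 and 1.57 times higher in replicate 1 (adjusted p = 0.00707). TUBE1 and TUBD1 did not follow the library order of the alpha and beta tubulins described below.

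Mitotic kinesins were the most evenly expressed group. Of 15 genes, 13 were detected, and all 13 lay between 6.20 and 20.9 CPM per kilobase, whereas detected transport kinesins spread from 0.857 to 57.4 and other kinesins from 0.300 to 12.7. Summed over the group the level was 894, 893.7, 898 and 873 CPM, an SD of 11.4 over the libraries. The 2 others were KIF4B, an intronless copy of KIF4A with 10 counts over the 4 libraries, and KIF2B, at 0. Of 13 tested, all at 10 CPM or more, 8 varied after the length and GC adjustment, beside 48.5% of all genes tested at any level. Before it 12 varied, beside 77.7% of all genes at 10 CPM or more. KIF15 was the exception (adjusted p = 0.586), and the range between lowest and highest library was 1.24 times at most.

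The 3 highest per kilobase were KIF2C, KIF11 and KIFC1. KIF2C (MCAK), which takes microtubules apart at their ends and at kinetochores, had 74.1, 78.6, 81.2 and 71.01 CPM, or 20.9 ± 1.24 per kilobase, above 85.6% of detected genes. KIF11 (Eg5), which pushes spindle poles apart, had 93.0, 86.2, 87.8 and 88.3 CPM, or 18.3 ± 0.604 per kilobase, with replicate 1 highest (adjusted p = 0.015). KIFC1, a minus-end motor that bundles spindle microtubules and clusters centrosomes, had 52.3, 63.0, 63.8 and 59.6 CPM, or 17.8 ± 1.57 per kilobase, lowest in replicate 1. KIF22, a chromosome-arm motor, had the largest spread of those that varied, at 65.2, 80.6, 77.9 and 68.1 CPM (SD of log2 CPM 0.15, adjusted p = 2.01e-19). The orders of libraries differed between these genes: KIF11 was highest where KIFC1 and KIF22 were lowest. After the length and GC adjustment KIFC1 and KIF22 were still lowest in replicate 1, while KIF11 was highest in replicate 4.

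The motors of the central spindle and cytokinesis were at similar levels. KIF23 (MKLP1), a subunit of centralspindlin, had 107, 98.3, 104 and 101 CPM, or 15.6 ± 0.566 per kilobase. KIF20A (MKLP2), which brings the chromosomal passenger complex to the midzone, had 48.3, 48.3, 52.0 and 46.1 CPM, or 12.3 ± 0.619 per kilobase. KIF4A, a chromokinesin that works with PRC1, had 62.3, 60.3, 67.8 and 61.1 CPM, or 13.9 ± 0.751 per kilobase, highest in replicate 3. KIF20B stood at 12.8 ± 1.03 and KIF14 at 11.7 ± 0.383 CPM per kilobase. KIF18A, which limits chromosome movements at metaphase, had 41.5, 41.0, 35.01 and 38.3 CPM and its relative KIF18B 46.1, 50.4, 54.0 and 48.97. In replicate 3 KIF18A was at its lowest and KIF18B at its highest, and with the length and GC adjustment the variation of KIF18B was no longer detectable (adjusted p = 0.117).

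The promoters of this group held shared letter patterns. Genes that peak in G2 and M phase often carry a cell cycle homology region, a short A/T-rich stretch such as TTTGAA or TTTAAA, downstream of CCAAT boxes. RefSeq windows of 250 bases before to 50 after each gene start (GRCh38.p14) were searched on both strands for CCAAT boxes and for the patterns TTTGAA and, as its variant, TTTAAA. The variant reads the same on both strands, and no 2 of these motifs contain each other. The windows from 100 bases before the start up to the start are shown for the 5 mitotic kinesins that hold both patterns there, 5′ to 3′ in the direction of the gene, with matches on either strand in capitals (a match on the opposite strand reads TTCAAA or ATTGG). KIF11 is chr10:92593030-92593129, KIF23 chr15:69414249-69414348, KIF20A chr5:138179012-138179111 and KIF4A chrX:70290004-70290103, all on the forward strand, and KIF18A is chr11:28108157-28108256 on the reverse strand.
KIF11: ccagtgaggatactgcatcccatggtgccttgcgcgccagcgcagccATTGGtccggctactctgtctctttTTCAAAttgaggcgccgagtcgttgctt
KIF23: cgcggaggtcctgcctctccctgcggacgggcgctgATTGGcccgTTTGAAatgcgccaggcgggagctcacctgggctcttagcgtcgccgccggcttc
KIF20A: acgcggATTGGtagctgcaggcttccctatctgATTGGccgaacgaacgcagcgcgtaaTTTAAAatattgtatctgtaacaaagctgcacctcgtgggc
KIF4A: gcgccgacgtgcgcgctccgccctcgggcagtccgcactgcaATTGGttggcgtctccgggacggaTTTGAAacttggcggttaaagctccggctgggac
KIF18A: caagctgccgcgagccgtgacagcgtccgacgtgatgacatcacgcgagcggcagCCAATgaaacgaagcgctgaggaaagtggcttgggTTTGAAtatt
In KIF11 the CCAAT match began 53 bases and the TTTGAA match 28 bases before the start. In KIF20A, where TTTAAA takes the place of TTTGAA, the CCAAT matches began 94 and 67 bases and the TTTAAA match 41 bases before the start.

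Of 64 members, 56 were found by symbol in the RefSeq promoter table. KIF13B, KIF19, KIF21B, KIF26B, KIF27, KIF5A, KIFC2 and KIFC3 were not used here. TTTGAA or TTTAAA was present for 12 of 15 mitotic kinesins, beside 27.9% of all 27305 genes in the table, and CCAAT for 11 of 15, beside 39.7%. Both patterns occurred together for 10 of 15, beside 11.2% of all genes. Among transport kinesins with a window, TTTGAA or TTTAAA occurred for 2 of 11 (KIF16B and KIF5B), and among other kinesins for 0 of 8. Alpha tubulins held it for 1 of 9 and beta tubulins for 2 of 9, although CCAAT was present for 6 of 9 in each family. The mitotic kinesins without TTTGAA or TTTAAA were KIF22, KIF2A and KIF2B, at 16.9, 17.5 and 0 CPM per kilobase. KIF4B, the intronless copy of KIF4A, held both patterns and was not detected. Both genes held CCAAT on the reverse strand and then TTTGAA on the forward strand. These began at -58 and -34 from the start in KIF4A and at -21 and 3 in KIF4B. The 2 genes may therefore not be separate occurrences, which was not tested. The search was chosen with the expression data known, and a match does not show that a factor binds there.

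**Figure D3:**
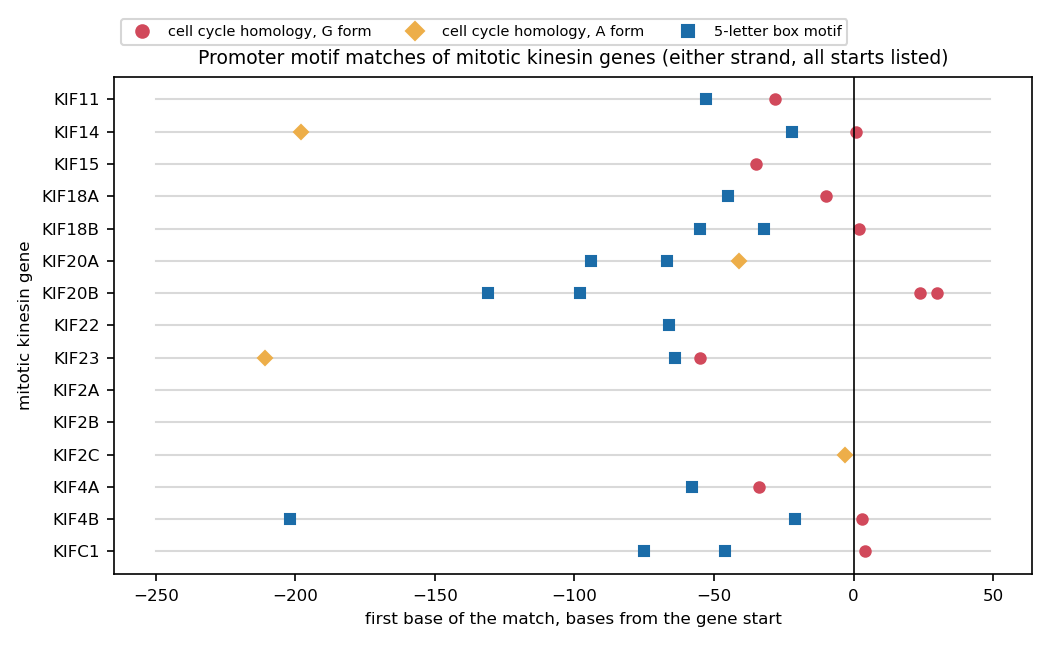
Position of the first base of each motif match relative to the RefSeq gene start (0, vertical line), in bases, for the 15 mitotic kinesin genes, from 250 bases before to 50 after the start. Circles and diamonds mark the G and A forms of the cell cycle homology letters and squares the CCAAT box, and 10 of the 15 genes hold both kinds.

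Transport kinesins had a single dominant member. KIF5B (ENSG00000170759, chromosome 10, 32009010 to 32056431, reverse strand), the ubiquitous heavy chain of conventional kinesin, had 354, 347, 328 and 321 CPM, a mean of 338 ± 15.7 (SD, n = 4). Its 57.4 ± 2.67 CPM per kilobase was above 95.5% of detected genes and the highest of all kinesins. Replicates 1 and 2 stood above replicates 3 and 4 (adjusted p = 1.15e-18). The neuronal heavy chain KIF5A had 1 count in replicate 4 and 0 elsewhere, and KIF5C, also enriched in neurons, had 14.1, 14.5, 13.9 and 14.5 CPM, or 1.55 ± 0.0312 per kilobase, with no variation detectable (adjusted p = 0.878).

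Of the kinesin-3 motors, which carry vesicles over long distances, KIF1C was the highest. It had 157, 176, 181.8 and 164 CPM, or 19.8 ± 1.32 per kilobase, and was the most variable transport kinesin among those that varied (SD of log2 CPM 0.10, adjusted p = 1.49e-19). KIF1B had 83.3, 73.3, 76.2 and 83.2 CPM, or 4.46 ± 0.285 per kilobase, with replicates 1 and 4 above replicates 2 and 3, the opposite order to KIF1C. With the length and GC adjustment the variation of KIF1B was not detectable (adjusted p = 0.325) and replicate 4 was no longer above replicate 2. KIF1A, a neuronal motor for synaptic vesicle precursors, had 2 counts, both in replicate 4. KIF13A stood at 6.39 ± 0.172, KIF13B at 3.08 ± 0.145 and KIF16B, an endosome motor, at 0.857 ± 0.0552 CPM per kilobase.

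Kinesin-2, which carries cargo in the cytoplasm and along cilia, is a complex of KIF3A with KIF3B or KIF3C and the adaptor KIFAP3. KIF3B had 71.8, 67.1, 67.5 and 66.5 CPM, or 11.2 ± 0.393 per kilobase. KIF3A had 23.7, 24.3, 22.4 and 22.4 CPM, or 3.39 ± 0.14 per kilobase, KIF3C stood at 5.12 ± 0.0669 and KIFAP3 at 4.27 ± 0.111. KIF3A and KIF3C showed no variation beyond counting noise (adjusted p = 0.217 and 0.889), and that of KIF3B was slight (adjusted p = 0.0282, and 0.112 with the length and GC adjustment). KIF17, a homodimeric relative, was below detection at 0.265 to 0.332 CPM. In all, 10 of 13 transport kinesins were detected and 5 of 11 tested varied, beside 59.2% of all genes tested. After the length and GC adjustment 2 did, beside 48.5% of all genes tested.

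The other kinesins were lower, with 10 of 14 detected and 5 of 11 tested varying, beside 59.2% of all genes tested. With the length and GC adjustment 3 varied, beside 48.5% of all genes tested. KIFC3, a minus-end motor, had 109, 138, 128 and 113 CPM, or 12.7 ± 1.42 per kilobase, highest in replicate 2 and lowest in replicate 1 (adjusted p = 1.19e-39). KIF21B and KIF21A, which act on microtubule growth, had 46.5, 49.98, 51.8 and 48.4 CPM and 35.1, 30.9, 31.1 and 35.4 CPM. Their library orders were opposed: KIF21A was higher in replicates 1 and 4, and KIF21B in replicates 2 and 3. With the length and GC adjustment neither varied detectably (adjusted p = 0.118 and 0.28). KIF26A had the largest spread of those that varied, at 2.94, 3.13, 3.18 and 4.19 CPM (SD of log2 CPM 0.23, adjusted p = 0.0162), with replicate 4 above the rest. KIF7, a regulator of Hedgehog signalling at the cilium tip, had 1.39, 1.83, 1.63 and 1.16 CPM, with no variation detectable (adjusted p = 0.102). KIF24 (2.62), KIFC2 (2.54), KIF26B (1.39), KIF27 (1.39) and KIF9 (0.950 CPM per kilobase) lay between. KIF6 had 41 counts and KIF12 15 over the 4 libraries.

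Related genes were compared within each library by the log2 ratio of their levels per kilobase, for 21 pairs set by protein family. In 20 of 21 pairs the same gene was higher in all 4 libraries, with an exact two-sided sign-flip permutation p of 0.13, from 2 of 16 sign patterns (adjusted over the pairs, 0.131). That p is the smallest that 4 libraries allow, so no pair can reach 0.05. The sizes depend on the length used: with the longest transcript, the principal transcript or plain CPM, 9 of the 21 ratios moved by over 1.5 times. TUBA1B exceeded TUBA1C by 1.10 ± 0.03 (SD, n = 4), or 2.14-fold, and TUBA1A by 4.86 ± 0.06, or 29.01-fold, the last with a log2 ratio of 4.18 to 5.16 over the length settings. TUBB exceeded TUBB4B 2.46-fold, with a log2 ratio of 1.26 to 1.97 over those settings, TUBB6 exceeded TUBB3 by 1.54 ± 0.06 and TUBG1 exceeded TUBG2 by 2.73 ± 0.12. Of kinesins, KIF5B exceeded KIF5C by 5.21 ± 0.07, or 37.1-fold, the log2 ratio being 4.56 with plain CPM. KIF3A lay below KIF3B by a log2 ratio of -1.72 ± 0.06 and KIF1B below KIF1C by -2.15 ± 0.18, which became -1.53 with the longest transcript and -1.10 with plain CPM. KIF11 exceeded KIF15, a further motor that pushes spindle poles apart, by 1.56 ± 0.05, KIF13A exceeded KIF13B by 1.06 ± 0.10 and KIF26B exceeded KIF26A by 1.49 ± 0.18, or 2.58 with plain CPM.

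In 4 pairs the lower gene had 11 or fewer counts in all, and the ratio of summed counts per kilobase is given with its exact 95% counting interval. TUBB2A to TUBB2B was 492 (275 to 987) and KIF4A to KIF4B 1035 (562 to 2158). KIF5B to KIF5A was 61120 (10969 to 2414138), resting on 1 count, and KIF1C to KIF1A was 28165 (7796 to 232575), resting on 2. The last ratio moved 1.95 times with plain CPM.

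Small ratios did not all keep their sign when the length was changed. KIF20A to KIF20B was -0.05 ± 0.18, with replicate 3 alone above 0 (exact permutation p = 0.5), and 0.16 with the longest transcript. KIF2A to KIF2C was -0.25 ± 0.11 and became 0.13 with plain CPM. KIF21A to KIF21B was -0.31 ± 0.17 and became 0.01 with the longest transcript. KIFC1 to KIFC3 was 0.49 ± 0.09 and became -0.69 with the longest transcript and -1.03 with plain CPM. The means of KIF20A to KIF23 (-0.34 ± 0.07, and -1.08 with plain CPM) and KIF18A to KIF18B (-0.36 ± 0.20) kept their sign under the settings run. With the longest transcript KIF18A to KIF18B was only -0.12 (exact permutation p = 0.375), and its libraries no longer all had the same sign.

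**Figure D4:**
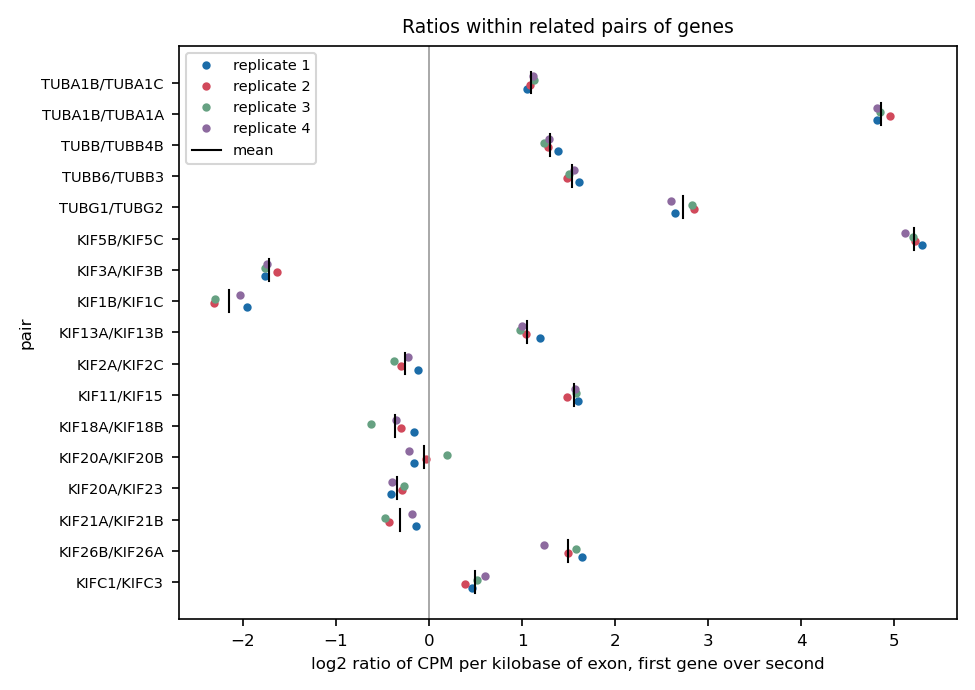
Log2 ratio of CPM per kilobase of exon, first gene over second, for the 17 pairs in which both genes had over 20 counts, with 1 point per replicate library and a bar at the mean. All points lie on the same side of 0 except for KIF20A/KIF20B, and ratios run from -2.15 for KIF1B/KIF1C to 5.21 for KIF5B/KIF5C.

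The alpha and beta tubulins moved together between libraries. All 11 detected genes of these 2 families lay above their own mean in replicate 2, and 0 of 11 did in replicates 1 and 4. Of all 12984 detected genes, 7211 did in replicate 2, 6190 in replicate 1 and 5485 in replicate 4. For 9 of the 11 replicate 2 was the highest library, which held for 34.4% of all detected genes. The mean deviation of log2 CPM from each gene's mean was -0.10, 0.13, 0.04 and -0.06 in replicates 1 to 4 for alpha tubulins and -0.12, 0.15, 0.06 and -0.09 for beta tubulins. For the 33 detected kinesins it stayed between -0.01 and 0.01 in every library, a mean over members that went both ways, with 15 of 33 above their own mean in replicate 1 and 17 in replicate 2. Without the TMM factors, on plain library totals, 2 alpha tubulins and 1 beta tubulin lay above their mean in replicate 1, and 5 of 6 and 5 of 5 in replicate 2. On that scale the kinesin mean was 0.02, -0.04, -0.01 and 0.03, with 8 of 33 above in replicate 2 and 22 in replicate 4, beside means of 0.02, -0.04, -0.01 and 0.04 over all detected genes. With the length and GC adjustment 4 of 6 alpha and 3 of 5 beta tubulins lay above their mean in replicate 1, 5 and 4 in replicate 2, 2 and 1 in replicate 3 and 0 in replicate 4.

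Beside this pattern, the difference between replicates 2 and 1 went with GC content and gene length across genes, and the share of structural RNA differed between libraries. Detected tubulins had a median GC content of 57.8% in their longest transcript and a median exonic length of 3359 bases, against 47.6% and 6131 bases for detected kinesins and 47.7% and 5073 bases for all detected genes. Among all 12922 detected genes with a GC value, the difference between replicates 2 and 1 went with GC content (Spearman's rho across genes 0.51), and among the 48 detected members rho was 0.78. Genes share their libraries here, so this is a description. It held within kinesins too (rho 0.72 over 33 genes, 0.68 over 15 tubulins). For exonic length rho was -0.37 over all detected genes and -0.47 over detected members. Within tubulins it was -0.46 and within kinesins, where it was weaker, -0.22. Of the 15 detected tubulins, 9 lay in the fifth of genes with the highest GC content, where the median deviation of all genes was -0.11 in replicate 1 and 0.08 in replicate 2. The abundant structural RNAs RN7SL1, RN7SL2 and RN7SK took 5.88%, 8.72%, 7.63% and 6.80% of counts in replicates 1 to 4, also highest in replicate 2 and lowest in replicate 1. When the levels were adjusted per library for length and GC content, the median difference between replicates 2 and 1 for tubulins went from 0.20 to 0.05. The SD of the group means over libraries went from 0.10 to 0.04 for alpha and from 0.13 to 0.04 for beta tubulins. Of 53 members 25 then varied, 12 tubulins and 13 kinesins, against 48.5% of all genes. The part of structural RNA in the pattern was not tested.

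**Figure D5:**
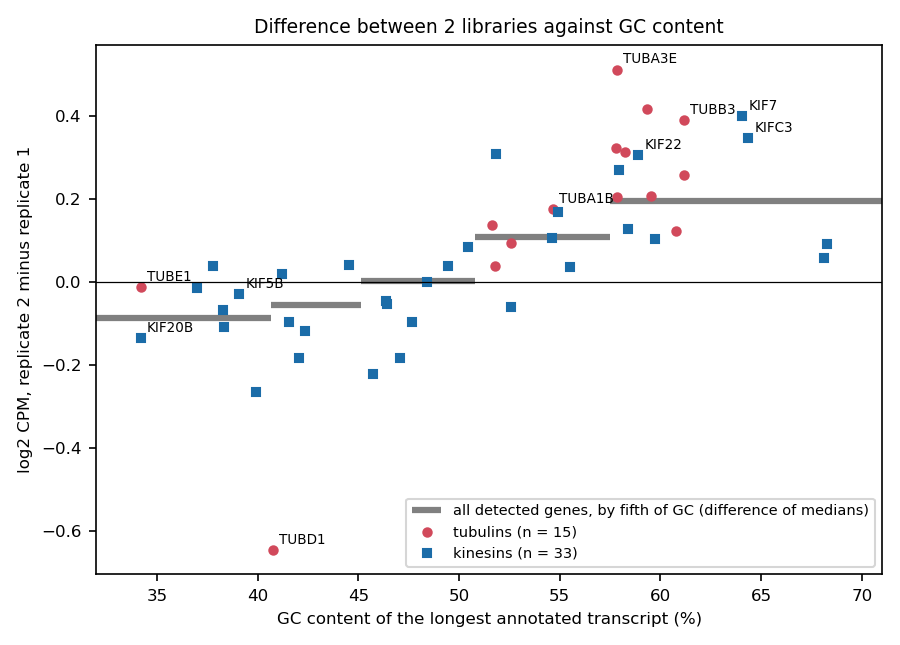
Difference in log2 CPM between replicates 2 and 1 against the GC content (%) of the longest annotated transcript, for 15 detected tubulins (circles) and 33 detected kinesins (squares), with grey bars for the difference of medians of all detected genes in 5 equal GC classes. Members of high GC content of both families lie above 0 with the grey bars, and TUBD1 lies lowest at low GC content.

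Genes that act on tubulins and kinesins were read from 6 lists, whose counts of varying genes stand beside 59.2% of all genes tested and 77.7% of those at 10 CPM or more. Of 14 tubulin folding and autoregulation genes, 14 were detected, all at 10 CPM or more, and 12 varied. PFDN2 (75.1 CPM per kilobase), ARL2 (33.7) and PFDN5 (30.6) were highest. PFDN2 and PFDN5 are subunits of prefoldin, which hands new tubulin to its chaperonin, and ARL2 is a small GTPase that works with the tubulin cofactors. ARL2 was also the most variable, at 60.3, 83.0, 75.0 and 62.6 CPM, again highest in replicate 2 and lowest in replicate 1. TTC5, which recognises new tubulin chains and triggers decay of their mRNA when free tubulin is plentiful, had 33.2, 35.8, 33.3 and 30.2 CPM, or 3.42 ± 0.238 per kilobase (adjusted p = 0.000394).

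Of 18 genes for tubulin acetylation and tail modification, 14 were detected and 8 of 15 tested varied, 7 of the 8 genes at 10 CPM or more among them. TTLL12 was highest at 27.1 CPM per kilobase, followed by the deglutamylases AGTPBP1 (6.46) and AGBL5 (6.19), and the tubulin deacetylase SIRT2 was the most variable, at 15.4, 21.4, 18.0 and 15.4 CPM. ATAT1, the alpha tubulin acetyltransferase, had 4.33, 4.35, 4.88 and 5.61 CPM, or 1.19 ± 0.149 per kilobase, highest in replicate 4 (adjusted p = 0.041). HDAC6, the main tubulin deacetylase, had 13.5, 16.1, 16.5 and 15.7 CPM, or 1.458 ± 0.127 per kilobase, lowest in replicate 1 (adjusted p = 0.00489). The mean levels per kilobase were thus 1.458 and 1.19 CPM for HDAC6 and ATAT1, whereas the plain means were 15.46 and 4.79 CPM, so how far apart the 2 opposing enzymes stand depends on the length used.

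All 12 genes of the gamma-tubulin ring complex and its partners were detected, at 10 CPM or more, and 11 varied, beside 77.7% of all genes at that level. LGALS3BP (51.9 CPM per kilobase), listed for its copurification with the complex, and the small subunits MZT2B (41.9) and MZT1 (32.4) were highest. MZT2B was the most variable, at 64.4, 95.1, 80.6 and 64.0 CPM. Of 17 microtubule-associated and plus-end proteins 16 were detected and 12 varied, 11 of the 13 genes at 10 CPM or more among them. The list was led by the spindle assembly factor TPX2 (72.3), the end-binding protein MAPRE1 (57.5) and MAP1B (48.1 CPM per kilobase). MAP7 had the largest spread of the detected ones, at 1.07 to 1.42 CPM, with no variation beyond counting noise (adjusted p = 0.526).

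Of 12 kinesin partners, 11 were detected and 9 of 11 tested varied, 8 of the 10 genes at 10 CPM or more among them. RACGAP1, which joins KIF23 in centralspindlin, was highest at 29.5 ± 0.946 CPM per kilobase, beside 15.6 ± 0.566 for KIF23. The dynein adaptor BICD2 (12.8) and the kinesin light chain KLC2 (9.37) followed, and KLC4 was the most variable, at 7.22, 9.43, 7.33 and 8.23 CPM. In the last list, of kinesin-7 and dynein genes, 5 of 6 were matched, all 5 were detected and 4 varied. CENPE, the kinetochore kinesin whose symbol falls outside the name rule, had 104, 104, 92.1 and 97.8 CPM, or 10.5 ± 0.606 per kilobase, within the band of the mitotic kinesins. The dynein genes DYNC1H1 (30.6), DYNC1I2 (23.1) and the dynactin gene DCTN1 (12.04 CPM per kilobase) were highest, and DCTN1 was the most variable, at 115, 131, 134 and 122.7 CPM.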

How the data were processed

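Total RNA of 4 KDAC8 knockout HT1080 libraries was depleted of ribosomal RNA with a Ribo-Zero Plus kit and sequenced as read pairs, per the labels' protocols. Trimmomatic 0.39, Bowtie2 2.5.4, RSEM 1.3.3, DESeq2 1.46.0 and the GRCh38 build are named in the submitters' processing notes. Settings, strand use, annotation release and filters were not stated in the sources used here. The deposited values are expected counts per Ensembl gene, in 1 column per library with no scaling between libraries, and 10.6% to 11.9% of values per library were not whole. An expected count can divide a read among genes of similar sequence. Of per-sample columns, 0 were left unused.

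Counts were rounded to whole numbers for count tests. CPM was computed with TMM in edgeR 4.0.16 (factors 1.02, 0.963, 0.988 and 1.03). GENCODE release 29 (GRCh38) gave positions, lengths and GC content, and its release may differ from the authors'. The chi-square test of homogeneity covered the 16790 genes whose mean reached 10 counts (SciPy 1.17.1). It was tried on counts simulated with counting noise alone and added differences in a single library, and the sign-flip test on a single example. The length and GC adjustment, the shares and the pair ratios were not simulated. Pair ratios added 0.01 CPM before division by length. The biological coefficient of variation (edgeR common dispersion, no covariate) was 0.0915. A count of 0 in 1 library allows up to 0.0662 to 0.0742 CPM (3 counts). Alternatives were DESeq2 1.42.0 size factors, library totals, other thresholds, lengths and pseudocounts, a length and GC adjustment in 20 bins, and leaving out each replicate. In each role group the 3 highest members per kilobase, the most variable member that varied, members of the pairs, and those near 1 CPM or at 0 were named. Members and lists were chosen with earlier results of these data known. The list gene LIS1 was not matched to a row.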

Additional observations from a re-analysis of the deposited data

Results flagged for a closer look

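In 3 of the 77 per-library values examined by Dixon's criterion, 1 library stood far from the other 3, and chance marks about 1 in 20 such groups of 4. The log2 ratio of KIF5B to KIF5A per kilobase was 13.31 in replicate 4, against 15.09 to 15.20 elsewhere, replicate 4 being the only library with a KIF5A count. The log2 ratio of KIF1C to KIF1A was 12.45 in replicate 4, against 14.90 to 15.11, and replicate 4 held both KIF1A counts. The TUBB6 share of beta tubulins was 9.76% in replicate 2, against 9.07% to 9.15% in the others.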

How the results depend on the processing

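Members detected numbered 48 with every scaling and without each replicate, 50 at a threshold of 0.5 CPM and 43 at 1 CPM per kilobase. Members varying numbered 36 with DESeq2 size factors, 38 with library totals, 33 of 61 with no filter on low counts (34.8% of all genes), 25 with the length and GC adjustment, and 27 to 34 without 1 replicate, where 46.8% to 55.9% of all genes varied. Without replicate 1, 13 tubulins and 14 kinesins varied (49.3% of all genes), and without replicate 2, 10 and 21 (48.8%). Pair ratios changed sign for KIF2A/KIF2C (0.13 with plain CPM), KIF20A/KIF20B (0.16 with the longest transcript), KIF21A/KIF21B (0.012 with the longest transcript) and KIFC1/KIFC3 (-0.69 with the longest transcript, -1.03 with plain CPM). With the longest transcript, plain CPM and the principal transcript in turn, the TUBA1B share was 53.6%, 57.5% and 69.1%, the TUBB share 57.5%, 65.6% and 56.0%, and the log2 ratio of alpha to beta tubulin -0.36, -0.13 and 0.088. The principal transcript was chosen after seeing the data. The SD of group means over libraries was 0.0606 with library totals and 0.0388 with the length and GC adjustment for alpha tubulins (0.103 as reported), and 0.0842 and 0.0434 for beta tubulins (0.1275). For transport kinesins it was 0.0217 with DESeq2 size factors, 0.0515 with library totals and 0.0207 with the adjustment, against 0.0129, and for other kinesins 0.024 with the adjustment, against 0.0407. The length settings change only the divisor of each level. For the other shifts the cause was not tested. No paired analysis was possible because the labels give 1 group. Depth limits members under about 10 counts per library, where the range between libraries rests on few reads.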
